A study of Mus musculus with 8 samples.

Results

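The subject is the nuclear-encoded respiratory chain and ATP synthase, taken as every listed gene whose symbol begins with Nduf, Uqcr, Atp5, or Cox followed by a digit from 4 to 8, together with Sdha, Sdhb, Sdhc, Sdhd and Cyc1. By this rule, which looks at symbols and at no measured value, 91 of 23337 listed genes qualified, although the group itself was picked for description with earlier results of these data known. RNA sequencing was done on MOE cells, a murine oviductal epithelial cell line of FVB strain, and the oviduct is the mouse organ that corresponds to the fallopian tube. Cells were trypsinised at confluence and placed for 6 h on 3D collagen gels (4 libraries) or on 2D collagen (4 libraries), and both groups were kept in the line's standard medium with EGF omitted. The question is how transcript levels of 1 cell line differ with the form of its collagen substrate. Whether the 4 replicates of a group were grown as separate cultures is not said in the labels, and p-values therefore reflect a spread among libraries that may be technical only.

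The respiratory chain sits in the inner mitochondrial membrane. Complex I takes electrons from NADH and complex II takes them from succinate, complex III passes them through cytochrome c1 to cytochrome c, complex IV hands them to oxygen, and complex V, the ATP synthase, uses the resulting proton gradient to make ATP. Complex II is built from nuclear genes alone, whereas the other complexes also need subunits encoded in mitochondrial DNA, and secretory and ciliated epithelia such as the oviduct draw on this system for transport and ciliary beating. Of the 13 mitochondrial DNA-encoded subunits, 0 were among the listed genes, and they were not analysed here.

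The libraries held 15692699 to 25862036 reads assigned to genes, and 14064 to 14598 genes had at least 1 read. Values are normalized counts, that is, each library's reads divided by its own size factor. Of the 91 members, 82 reached a normalized count of 10 in at least 4 libraries and were tested, and each of the other 9 is accounted for further on. The 9 oviductal epithelium markers each had at least 1 read over the 8 libraries together. Their sum was 8490 to 10635 RPM (reads per 1000000 reads) on 3D collagen and 10593 to 11797 on 2D collagen. Krt7 was the highest of them, with a mean of 4348 RPM over the 8 libraries, and the sum does not show the level of each marker. Because isoforms of several subunits are known from muscle and testis, markers of those tissues were read as well: the 10 muscle markers summed to 13.9 to 45.5 RPM on 3D collagen and 17.4 to 30.6 on 2D collagen, and the spermatid genes Prm1, Prm2, Tnp1 and Tnp2 were at 0 in every library. The 7 blood and immune markers summed to 18.7 to 30.4 RPM on 3D collagen and 7.07 to 18.5 on 2D collagen, with the globin genes Hba-a1 and Hbb-b1 at 0. Cd68 alone averaged 18.7 RPM over the 8 libraries, so the sum mainly follows that 1 gene. Whether such cells were present, and their part in the results, was not tested.

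The system was abundantly transcribed on both substrates, and most of its genes differed little between them. Together the members took 1.85 ± 0.10% of all reads on 3D collagen and 1.80 ± 0.22% on 2D collagen (mean ± SD, n = 4 each). Compared between genes as transcript abundance (TPM, reads divided by transcript length and scaled to a sum of 1000000), the medians over the tested members were 698 in complex V, 670 in complex IV, 395 in complex III, 358 in complex I and 206 in complex II, and 23.1 for the 4 complex I assembly factors. Members left untested for low counts lower these values: over all members the median was 609 for the 15 of complex V, 71.3 for the 19 of complex IV and 350 for the 36 of complex I. The highest level of all belonged to Atp5b, the catalytic beta subunit of the ATP synthase, at 4016 ± 339 TPM on 3D collagen and 4467 ± 693 TPM on 2D collagen. Cox4i1, a structural subunit of complex IV, came next at 3614 ± 554 TPM on 3D collagen and 3729 ± 826 TPM on 2D collagen, and these neighbours in the order overlap within their spread. Atp5g3, which encodes the proton-carrying c subunit of the ATP synthase, and Cox6a1 of complex IV followed at 1913 and 1909 TPM over all 8 libraries.

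Between the substrates, 3 members rose on 3D collagen and 0 fell at an adjusted p under 0.05 (limma over all 11820 tested genes, Benjamini-Hochberg adjustment). The 3 are Ndufa4 and Cox6c of complex IV and Atp5j of complex V. Over all tested genes 2.33% rose and 3.39% fell, so a count of 3 in 82 is close to that background and does not set the members apart as a group. At an unadjusted p under 0.05 limma gave 7 members higher and 4 lower, which is 13.4% of the members. Of all tested genes 24.2% were under it, 11.7% higher and 12.6% lower. DESeq2 and edgeR on the recovered reads also called 0 members lower. DESeq2 called 6 of the 82 higher, where it called 5.99% of all genes higher and 7.37% lower, and edgeR called 3 higher, where it called 2.72% of all genes higher and 3.18% lower, so that with these tools too the count of higher members is close to the background.

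The log2 fold change, 3D over 2D collagen, had a median of −0.01 over the 82 members and 0.02 over all tested genes. The interquartile range was −0.22 to 0.23 for the members and −0.29 to 0.39 for all tested genes. For 72 members (87.8%) the change was under 0.5 in size, as it was for 66.7% of all tested genes, which include many less abundant ones. The 95% interval of a member's log2 fold change reached a median of 0.43 to either side, and for 70 of the 82 it excluded a 2-fold change in either direction. Changes of 2-fold or more in either direction were estimated for 4 members (4.88%, against 8.81% of all tested genes). They were Uqcrb, Atp5j, Cox7b and Ndufa1, all of them higher on 3D collagen. Every 3D library lay above every 2D library for 6 members (7.32%, against 8.05% of all tested genes), and below every 2D library for 2 members (2.44%, against 10.4%). In bulk RNA, a change in the share of cells that carry a transcript and a change in its amount per cell cannot be told apart.

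**Figure D1:**
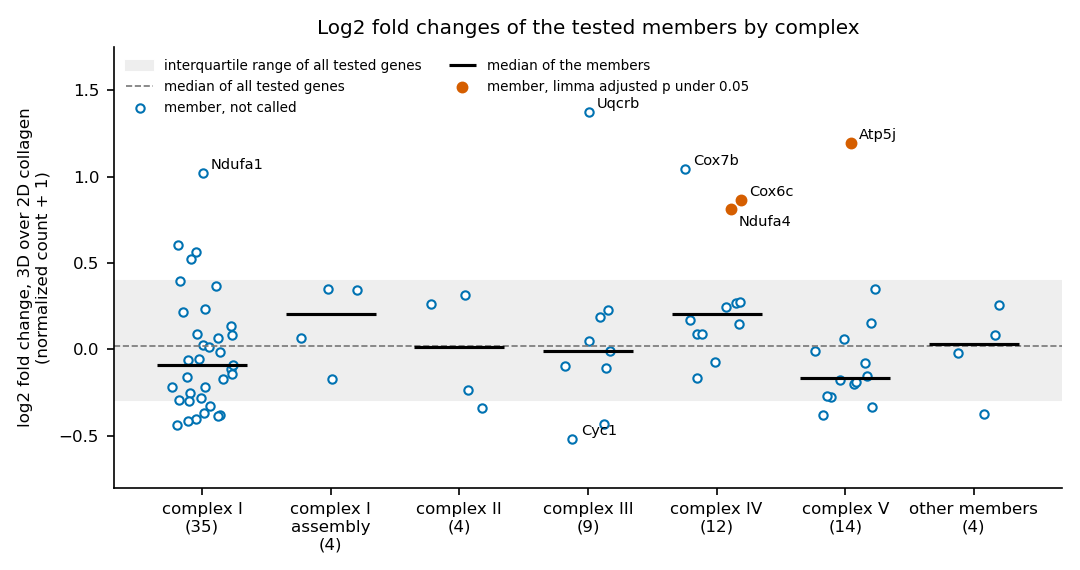
Log2 fold change (3D over 2D collagen, on log2 of the normalized count + 1) of each of the 82 tested members, grouped by complex, with the number tested in brackets; filled points passed the limma threshold, bars are medians, and the grey band is the interquartile range of all tested genes. Most points lie inside the band, the medians run from −0.17 in complex V to 0.21 in complex IV, and Uqcrb, Atp5j, Cox7b and Ndufa1 stand above 1.

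Ndufa4 encodes a small subunit named for complex I and since assigned to complex IV, where it is counted here (chromosome 6, 11900292 to 11907497, minus strand, GRCm38). Its normalized counts in replicates 1 to 4 were 6147, 4854, 5407 and 4339 on 3D collagen, against 2840, 2431, 3783 and 2829 on 2D collagen. The lowest 3D library lay above the highest 2D library, 2D replicate 3. The log2 fold change was 0.81 (SE 0.18, limma adjusted p = 0.0316).

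Cox6c encodes another small subunit of complex IV (chromosome 15, 35925886 to 35938246, minus strand). It had 2494, 1804, 2346 and 1842 normalized counts on 3D collagen, against 1243, 839, 1492 and 1144 on 2D collagen. The groups again did not overlap, and 2D replicate 2 was the lowest of all 8 libraries. The log2 fold change was 0.86 (SE 0.20, limma adjusted p = 0.0385).

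Atp5j encodes coupling factor 6 of the ATP synthase, part of the peripheral stalk that holds the catalytic head in place (chromosome 16, 84827866 to 84835625, minus strand). Counts of 1657, 1512, 1949 and 2379 on 3D collagen stood against 861, 453, 1077 and 1006 on 2D collagen. All 3D libraries lay above all 2D libraries, with 3D replicate 4 the highest and 2D replicate 2 the lowest. Its log2 fold change was the largest of the 3, at 1.19 (SE 0.28, limma adjusted p = 0.0393). The transcription factor gene Gabpa runs in the opposite direction and overlaps 22.5% of the exonic bases of Atp5j, and with the strand setting of the counting not given, reads of that stretch cannot be told apart. Gabpa itself had 350 ± 121 normalized counts on 3D collagen and 347 ± 197 on 2D collagen (SD, n = 4 each, log2 fold change 0.22, limma adjusted p = 0.835).

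These 3 calls rest on few libraries. Calls over all tested genes also fell: 44 to 267 were higher with 1 library left out, against 275 in the full fit. The log2 fold changes then ran from 0.72 to 0.93 for Ndufa4, 0.71 to 0.98 for Cox6c and 0.92 to 1.33 for Atp5j. With 1 library left out, Ndufa4 passed in 3 of 8 fits (without 2D replicate 2, 2D replicate 3 or 3D replicate 4), Cox6c in 2 (without 2D replicate 2 or 3) and Atp5j in 1 (without 2D replicate 2), and where a call was lost the limma adjusted p was 0.0600 to 0.116 for Ndufa4, 0.0551 to 0.137 for Cox6c and 0.0516 to 0.126 for Atp5j. Subtracting the trend with transcript length in each library ended all 3 calls, with log2 fold changes of 0.71 for Ndufa4, 0.75 for Cox6c and 1.12 for Atp5j (limma adjusted p = 0.0624, 0.0741 and 0.0558, in the same order). Subtracting the trend with GC content ended that of Ndufa4 (log2 fold change 0.59, limma adjusted p = 0.148), while the direction stayed upward for all 3 in every alternative tried.

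Another 4 members came near the threshold, each higher on 3D collagen. Uqcrb, a ubiquinone-binding subunit of complex III, had the largest fold change and the lowest level of that complex, with 131, 106, 178 and 292 normalized counts on 3D collagen, against 77.9, 38.2, 60.1 and 85.8 on 2D collagen (log2 fold change 1.37, SE 0.38, limma adjusted p = 0.0662). The groups did not overlap, and 3D replicate 4 was far above the other 3D libraries. Ndufa1, a small membrane subunit that complex I needs for its assembly, had 2661, 1583, 2330 and 1631 on 3D collagen, against 1110, 606, 1478 and 945 on 2D collagen (log2 fold change 1.02, SE 0.28, limma adjusted p = 0.0674). Cox7b, a small subunit of complex IV, had 1655, 1309, 1693 and 1713 on 3D collagen, against 833, 388, 1025 and 1043 on 2D collagen (log2 fold change 1.04, SE 0.30, limma adjusted p = 0.0739). Both Ndufa1 and Cox7b were separated by group, and 2D replicate 2 was the lowest library for each. These 3 passed with DESeq2 and so brought its count of members to 6 (adjusted p = 0.00549 for Uqcrb, 0.0150 for Ndufa1 and 0.0198 for Cox7b). Ndufb3, an accessory subunit of complex I, had 437 to 585 normalized counts on 3D collagen and 265 to 455 on 2D collagen, with overlapping groups (log2 fold change 0.61, SE 0.21, limma adjusted p = 0.117).

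**Figure D2:**
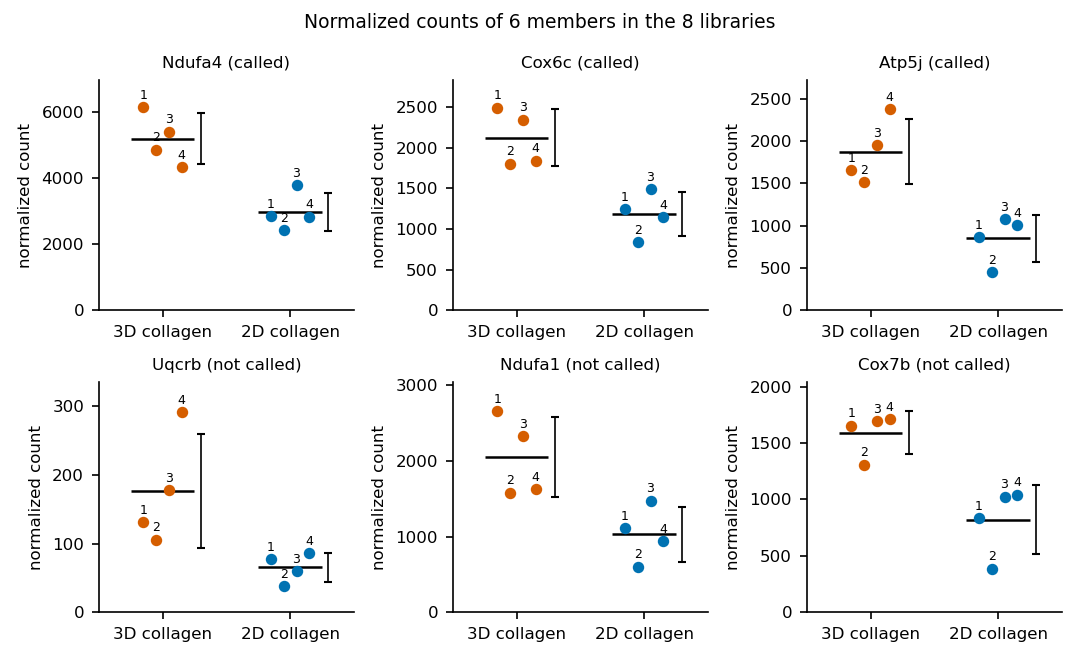
Normalized counts of Ndufa4, Cox6c, Atp5j, Uqcrb, Ndufa1 and Cox7b in the 8 libraries (digits are replicate numbers, horizontal bars group means, vertical bars ± 1 SD, n = 4). Every 3D point lies above every 2D point in each panel, 2D replicate 2 is the lowest library for all 6 genes, and limma called the upper row.

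NRF1, GABPA and YY1 are transcription factors known to bind promoters of nuclear-encoded respiratory genes, and the sequences upstream of called members are printed to show where their motifs lie, with Sdha as an example of several NRF1 matches. From the RefSeq promoter table (GRCm38.p6), 72 of the 91 members had an entry, among them Ndufa4 and Atp5j of the 3 called. In the window from 250 bases before to 50 after the start, on both strands, the NRF1 motif (GCGC, any base, then TGCGC) was found for 18 of the 72 members (25%), against 5.13% of 26953 other genes. The ETS motif CCGGAAG, the kind that GABPA binds, was found for 17 members (23.6%, against 9.89%), and the YY1 motif AAGATGGCG for 8 members (11.1%, against 1.61%). The 250 bases upstream are printed 5′ to 3′ on the gene's strand with motif matches in capitals, and positions count back from the start, −1 being the base just before it. Atp5j has a pair of annotated starts 649 bases apart: the upstream one, which is the start of its main transcript, held no match, and the downstream one held YY1 at −88 and ETS at −61. No match was found upstream of Ndufa4, and Sdha of complex II held NRF1 matches at −98, −55 and −10. A match is a description of the letters and was not tested as a binding site.
Atp5j, upstream start, chr16:84835626-84835875, minus strand: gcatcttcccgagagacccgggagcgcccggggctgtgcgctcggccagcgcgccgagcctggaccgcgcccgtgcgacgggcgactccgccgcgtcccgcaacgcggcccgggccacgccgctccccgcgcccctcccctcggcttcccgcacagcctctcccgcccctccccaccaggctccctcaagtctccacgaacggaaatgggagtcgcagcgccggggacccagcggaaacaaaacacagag
Atp5j, downstream start, chr16:84834977-84835226, minus strand: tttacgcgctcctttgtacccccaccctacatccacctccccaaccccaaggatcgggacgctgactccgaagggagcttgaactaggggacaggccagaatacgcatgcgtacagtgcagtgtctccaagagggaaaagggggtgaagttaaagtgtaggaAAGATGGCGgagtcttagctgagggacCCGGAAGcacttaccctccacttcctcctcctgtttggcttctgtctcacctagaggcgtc
Ndufa4, chr6:11907451-11907700, minus strand: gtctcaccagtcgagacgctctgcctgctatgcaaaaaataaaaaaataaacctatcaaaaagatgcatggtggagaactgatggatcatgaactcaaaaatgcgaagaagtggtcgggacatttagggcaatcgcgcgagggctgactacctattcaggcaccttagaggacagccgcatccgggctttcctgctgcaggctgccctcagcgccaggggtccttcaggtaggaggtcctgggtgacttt
Sdha, chr13:74350241-74350490, minus strand: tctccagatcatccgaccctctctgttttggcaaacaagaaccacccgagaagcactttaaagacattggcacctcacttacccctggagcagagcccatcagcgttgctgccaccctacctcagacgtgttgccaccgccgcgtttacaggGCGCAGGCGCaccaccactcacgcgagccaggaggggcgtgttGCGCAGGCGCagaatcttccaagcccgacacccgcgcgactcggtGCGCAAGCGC

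Complex I has 36 members, with Ndufa4, Ndufa4l2 and the assembly factors counted apart. Of the 35 tested 0 rose and 0 fell, beside 2.33% and 3.39% of all tested genes. At a limma unadjusted p under 0.05, 2 were higher and 2 lower, beside 11.7% and 12.6% of all tested genes. DESeq2 called Ndufa1 higher. The median log2 fold change of the 35 was −0.09, with 21 below 0 and 14 above. It became 0.08 with scaling by library size alone, a setting that shifts all tested genes by 0.17 at their median. Relative to the median of all tested genes it was −0.11 under either scaling. The 7 core subunits, which carry the electron path, had a median of −0.06, and the 28 tested supernumerary subunits −0.10. Ndufs8, a core iron-sulfur subunit, had the lowest value, with 2910 ± 311 normalized counts on 3D collagen and 4006 ± 982 on 2D collagen (log2 fold change −0.44, SE 0.19, limma adjusted p = 0.190). Ndufb8, the most abundant member of the complex at 1282 TPM, had 7608, 6407, 6734 and 5570 normalized counts on 3D collagen, against 7017, 13810, 7475 and 7974 on 2D collagen. The high mean on 2D collagen came from replicate 2, and the groups overlapped (log2 fold change −0.41, SE 0.23, limma adjusted p = 0.30). Ndufb9, the next in level, had 5196 ± 856 on 3D collagen and 6377 ± 1407 on 2D collagen (limma adjusted p = 0.410).

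The 4 assembly factors Ndufaf1 to Ndufaf4, chaperones that help build complex I and leave it when it is complete, held 0 calls in either direction, with 0 members at an unadjusted p under 0.05 and 0 called by DESeq2 or edgeR. Ndufaf1 had 237 ± 44.2 normalized counts on 3D collagen and 185 ± 24.0 on 2D collagen (log2 fold change 0.34, SE 0.21, limma adjusted p = 0.364). Ndufaf3 had 363 ± 36.5 on 3D collagen and 410 ± 45.0 on 2D collagen (log2 fold change −0.17, limma adjusted p = 0.564).

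Complex II, succinate dehydrogenase, was fully covered by its 4 genes, of which 0 passed the limma threshold in either direction (0 at an unadjusted p under 0.05, and 0 with DESeq2 or edgeR). The catalytic flavoprotein Sdha had 3250, 2840, 3401 and 3475 normalized counts on 3D collagen, against 2965, 2086, 3032 and 2812 on 2D collagen (log2 fold change 0.26, SE 0.16, limma adjusted p = 0.349). The iron-sulfur subunit Sdhb had 2778 ± 331 on 3D collagen and 3302 ± 638 on 2D collagen (log2 fold change −0.24, limma adjusted p = 0.444). For these 2 subunits the groups overlapped. The membrane anchors pointed in opposite directions. Sdhc had 3716, 3534, 3185 and 3153 on 3D collagen, against 3766, 5767, 3848 and 4029 on 2D collagen, without overlap but with 3D replicate 1 just under 2D replicate 1 (log2 fold change −0.34, SE 0.17, limma adjusted p = 0.255). Sdhd had 3110, 3025, 3037 and 3668 on 3D collagen, against 2439, 1798, 2910 and 3459 on 2D collagen, with overlap (log2 fold change 0.31, SE 0.20, limma adjusted p = 0.383).

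Complex III has 9 members, all tested, of which 0 passed in either direction, beside 2.33% higher and 3.39% lower over all tested genes. At an unadjusted limma p under 0.05, 1 of the 9 was higher and 1 lower, beside 11.7% and 12.6% of all tested genes. DESeq2 called Uqcrb. Cyc1, which encodes the cytochrome c1 that passes electrons to cytochrome c, had the lowest fold change of all 82 members. Its normalized counts were 5957, 5362, 5233 and 5938 on 3D collagen, against 6327, 11344, 6197 and 9402 on 2D collagen. The groups did not overlap, and the distance came mainly from 2D replicates 2 and 4 (log2 fold change −0.52, SE 0.21, limma adjusted p = 0.175). Uqcrc1, a core subunit, had 8720 ± 578 on 3D collagen and 12086 ± 3322 on 2D collagen with the same pair of high 2D libraries (log2 fold change −0.43, limma adjusted p = 0.229). Uqcr11, the most abundant of the complex at 1022 TPM, had 4067 ± 524 on 3D collagen and 3951 ± 631 on 2D collagen, and the 95% interval of its log2 fold change ran from −0.32 to 0.41. The 9 values had a median of −0.01, with 4 above 0. Scaled by library size alone, the median was 0.17 and 7 of the 9 lay above 0, and relative to the median of all tested genes it was −0.02 under either scaling.

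Complex IV, cytochrome c oxidase, holds 2 of the 3 calls, and it was not tested as a set. Over all tested genes 2.33% rose and 3.39% fell, while 11.7% were higher and 12.6% lower at an unadjusted limma p under 0.05. The 19 members of the complex include Ndufa4 and Ndufa4l2, placed here by role and not by symbol. Of the 19 members 12 were tested, 2 rose and 0 fell (3 higher and 0 lower at an unadjusted p under 0.05, with 0 lower by DESeq2 or edgeR). Their median log2 fold change was 0.21 and 10 of the 12 lay above 0, the exceptions being Cox4i1 and Cox7a1. Above the median of all tested genes lay 10 of 12 under each of the scalings tried (TMM, upper quartile and library size), and with both the GC and the length trends subtracted 7 of 12 did. Reads of the complex made up 0.345 ± 0.0393% of each 3D library and 0.284 ± 0.0284% of each 2D library, with overlap (0.302 to 0.388% on 3D collagen and 0.257 to 0.324% on 2D collagen); this difference was not tested. Cox4i1 had 29375, 22845, 24359 and 17076 normalized counts on 3D collagen, against 21135, 40950, 22819 and 22424 on 2D collagen (log2 fold change −0.17, SE 0.25, limma adjusted p = 0.734). The groups overlapped, and 2D replicate 2 stood far above the other 2D libraries. An antisense partner, the gene listed as Cox4nb (Emc8, a subunit of an endoplasmic reticulum complex, which the symbol rule also takes in), overlaps 20.1% of the exonic bases of Cox4i1. Cox6a1 had 10272 ± 2627 on 3D collagen and 8994 ± 1571 on 2D collagen (log2 fold change 0.17, limma adjusted p = 0.666).

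Complex V, the ATP synthase, has 15 members, of which 14 were tested, 1 rose and 0 fell, beside 2.33% and 3.39% of all tested genes. At an unadjusted limma p under 0.05, 1 was higher and 0 lower, beside 11.7% and 12.6% of all tested genes. DESeq2 and edgeR called 0 members of the complex lower. The median was −0.17, which is −0.18 relative to the median of all tested genes, and with library size alone as the scaling it was 0.01 before that subtraction. All 5 subunits of the catalytic F1 head (Atp5a1, Atp5b, Atp5c1, Atp5d and Atp5e) lay below 0, between −0.28 and −0.08, and 0 of them passed the test. With library size as the only scaling 2 of the 5 were above 0, but all 5 stayed below the median of all tested genes, and with the GC trend subtracted 4 did. Atp5b had 69812, 61824, 59337 and 67236 normalized counts on 3D collagen, against 66064, 85535, 69033 and 95013 on 2D collagen. The groups overlapped, and 2D replicates 2 and 4 were highest (log2 fold change −0.28, SE 0.17, limma adjusted p = 0.360). The 9 tested genes of the membrane part and stalks had a median of −0.01 and ranged widely, the lowest being Atp5g1 at −0.38 and the highest Atp5j. Atp5f1, which encodes the b subunit of the same peripheral stalk as Atp5j, had 2276 ± 265 on 3D collagen and 1803 ± 381 on 2D collagen (log2 fold change 0.35, SE 0.17, limma adjusted p = 0.254).

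The remaining 4 members taken in by symbol were Cox7a2l, which helps complexes associate into supercomplexes, Atp5s, Atp5sl and Cox4nb. Their log2 fold changes lay between −0.37 and 0.26, and 0 passed (1 lower at an unadjusted p under 0.05, and 0 called by DESeq2 or edgeR).

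The level of the whole system also varied between libraries of 1 group. Each tested member was centred on its mean over the 8 libraries, and the median over the 82 members was 0.13, −0.13, 0.07 and −0.11 (log2) in 3D replicates 1 to 4, against −0.22, 0.25, −0.05 and 0.12 in 2D replicates 1 to 4. The highest and the lowest library were both on 2D collagen, and the groups overlapped. For complex IV alone the medians were 0.37, 0.06, 0.15 and −0.07 in the 3D libraries and −0.29, 0.18, −0.09 and −0.20 in the 2D libraries, where 3 of the 4 2D libraries lay below every 3D library and 2D replicate 2 lay above 3 of them.

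**Figure D3:**
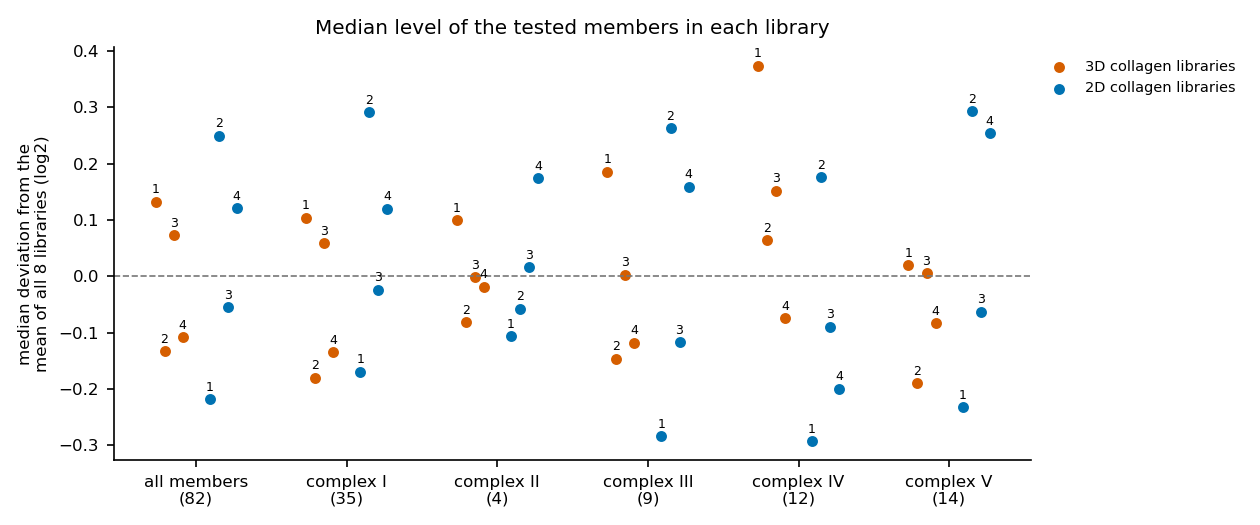
Median deviation (log2) of the tested members from their mean over all 8 libraries, for each library (digits are replicate numbers) and each complex, with the number of members in brackets. The groups overlap in every column, 2D replicate 2 is at 0.25 over all members, and complex IV has 3D replicate 1 at 0.37 and 2D replicate 1 at −0.29.

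The fold change of a member moved with the GC content of its transcript. Split by GC content into 3 groups, the 28 GC-poor members (39.0 to 49.4%) had a median log2 fold change of 0.27, the 27 intermediate members −0.06 and the 27 GC-rich members (54.6 to 61.1%) −0.17. All tested genes in the same GC ranges had medians of 0.24, −0.06 and −0.20, so this gradient was shared with genes in general. Across the 82 members Pearson's r was −0.47 and Spearman's rho −0.46, against −0.34 and −0.38 across 11709 tested genes; these are descriptions across genes that share the same 8 libraries. In 2D replicate 2 the GC-poor members deviated by a median of −0.41 and the GC-rich members by 0.54, the widest spread of the 8 libraries. Of the 3 called members Ndufa4 (44.1% GC) and Cox6c (48.7%) belong to the GC-poor group and Atp5j (56.0%) to the GC-rich one. With the GC trend subtracted in each library 5 members passed, namely Cox6c, Uqcrb, Cox8a, Atp5j and Cox7b, and without 2D replicate 2 as well Atp5j, Cox8a and Uqcrb did. In these fits 4.34% and 3.49% of all genes were higher on 3D collagen. Transcripts of the members were short, with a median of 870 bases against 2950 for all tested genes, and the part of length and GC content in the differences was not tested beyond these corrections.

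**Figure D4:**
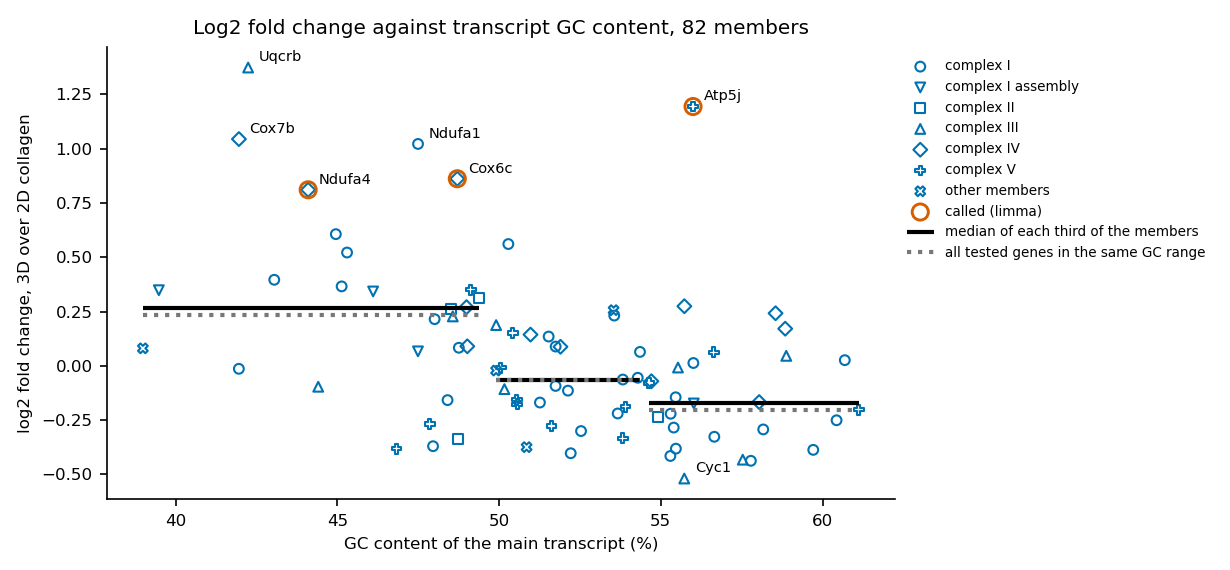
Log2 fold change (3D over 2D collagen) of the 82 tested members against the GC content of the main transcript in percent, with the complex as the symbol and called members ringed. Solid bars are the medians of the members in each of 3 GC groups (0.27, −0.06 and −0.17), dotted bars those of all tested genes in the same GC ranges (0.24, −0.06 and −0.20), and Atp5j stands out among GC-rich members.

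Several subunits exist as alternative genes with different tissue use, and in the MOE cells 1 gene held nearly all counted reads of each set. Cox4i2, an isoform known from lung and low oxygen, had 1.83 to 3.49 normalized counts on 3D collagen and 1.19 to 4.87 on 2D collagen, beside 17076 or more for Cox4i1. The heart and muscle form Cox6a2 had at most 3 reads in any library, where Cox6a1 had at least 7293 normalized counts, and Ndufa4l2, a paralogue of Ndufa4, had at most 4 reads. The muscle form Cox8b and the testis forms Cox8c and Cox7b2 had 0 reads in all 8 libraries, where a count of 0 allows up to 3 reads, that is 0.116 to 0.191 RPM by library. Cox7a1, the muscle form, made up 0.940 ± 0.349% of the reads of Cox7a1 and Cox7a2 on 3D collagen and 1.04 ± 0.381% on 2D collagen (SD, n = 4 each, exact two-sided permutation p = 0.657). Cox6b2, the testis form, made up 0.414 ± 0.0544% of the reads of Cox6b1 and Cox6b2 on 3D collagen and 0.398 ± 0.171% on 2D collagen (exact permutation p = 0.800).

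The c subunit of the ATP synthase is encoded by 3 genes that give the same mature protein. Atp5g3 held most of the counted reads, with 12492 ± 1025 normalized counts on 3D collagen and 11362 ± 2127 on 2D collagen (log2 fold change 0.15, limma adjusted p = 0.622). Atp5g1 made up 0.632, 0.506, 0.652 and 0.679% of the reads of the 3 genes on 3D collagen, against 0.796, 1.24, 0.793 and 0.790% on 2D collagen. Each 3D library lay below each 2D library, and the exact two-sided permutation p was 0.0286, the smallest that 4 against 4 libraries allow. Adjusted over the 4 shares tested it was 0.114, which does not pass. Atp5g2 made up 0.194 ± 0.0805% on 3D collagen and 0.199 ± 0.0585% on 2D collagen (exact permutation p = 0.943), but 87.4% of its transcript is shared with other genes. For Atp5g1, 11.6% of a 4715-base transcript is shared, with 366 other genes, 8 of them pseudogenes. The shares are therefore shares of counted reads, and the part of shared sequence in them was not tested.

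**Figure D5:**
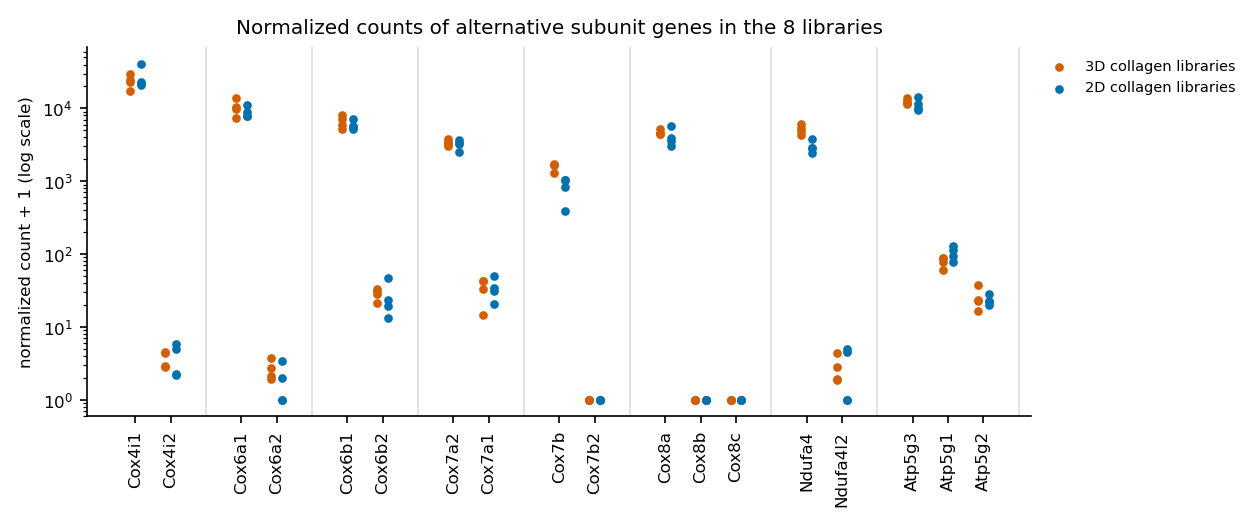
Normalized count + 1 on a log axis for the genes of 8 sets of alternative subunits, 4 libraries on 3D collagen to the left of 4 on 2D collagen for each gene; points at 1 are counts of 0. The first gene of each set holds nearly all of its reads, and Cox7b2, Cox8b and Cox8c are at 0 in all libraries. Counts of Atp5g1 overlap between the groups.

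Some members that every cell needs were nearly absent from the counts. Ndufs5, an accessory subunit of complex I, was listed at 0 in all 8 libraries. Cox7c of complex IV had 3.40, 4.37, 2.80 and 6.40 normalized counts on 3D collagen, against 1.95, 7.17, 0.791 and 6.13 on 2D collagen, and Atp5l, the g subunit of the ATP synthase, had 1.13, 0.873, 4.66 and 1.83 on 3D collagen, against 0.974, 2.39, 0 and 1.23 on 2D collagen. The values of both genes overlapped between the groups, and their levels of 0.861 and 0.344 TPM stand beside medians of 670 and 698 TPM for the tested members of their complexes. Each transcript was compared with all other annotated transcripts (GENCODE M21, GRCm38) by its 50-base stretches: 48 of the 91 members shared at least 1 such stretch with another gene, 33 of them with a pseudogene. More than 50% of the stretches were shared for 5 members, Atp5g2 (87.4%), Atp5l (84.8%), Cox7c (53.0%), Atp5h (50.5%) and Atp5o (50.3%), and the share was 41.2% for Ndufs5. The median level, over members tested or not, was 3.63 TPM for those 5 and 275 TPM for the 43 that share none, but Atp5o and Atp5h still had 787 and 190 TPM. Ndufab1 and Atp5g1 were also low, at 2.01 and 2.16 TPM, and shared 12.3% and 11.6% of their stretches. Pseudogenes among the genes sharing them numbered 2 for Ndufab1 and 8 for Atp5g1. How reads with several matches were handled is not given in the sources used here, so the part of such reads in the low counts was not tested, and shared stretches also make the values of Uqcrb (43.4%), Cox6c (21.1%) and Atp5j (16.3%) uncertain. The first 150 coding bases of Cox7c and Atp5l, from GENCODE M21 transcripts on GRCm38, are printed because they are the stretches in question. Every base, in capitals, falls in a 50-base stretch found in at least 1 other gene. Over the whole transcript, the genes sharing a stretch number 3 for Cox7c (all 3 pseudogenes) and 14 for Atp5l (12 of them pseudogenes).
Cox7c, chr13:86044816-86046904, minus strand: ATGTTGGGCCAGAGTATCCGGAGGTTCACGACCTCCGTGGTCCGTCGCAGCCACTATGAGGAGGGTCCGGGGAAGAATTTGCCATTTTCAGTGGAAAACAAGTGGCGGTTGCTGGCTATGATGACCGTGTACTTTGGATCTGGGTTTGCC
Atp5l, chr9:44912557-44920742, minus strand: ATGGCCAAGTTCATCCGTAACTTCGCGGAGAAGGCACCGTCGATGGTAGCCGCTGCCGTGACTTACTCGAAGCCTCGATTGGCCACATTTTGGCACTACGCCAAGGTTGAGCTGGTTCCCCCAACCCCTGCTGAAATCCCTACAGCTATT

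Genes that build, feed or regulate the chain were read from lists made for this comparison. Among complex I assembly factors outside the Ndufaf names 0 of 9 passed in either direction, among assembly factors of complexes II to V 0 of 31, among electron carriers and nucleotide transporters 0 of 25, and among mitochondrial ribosomal proteins 0 of 74. Their median log2 fold changes were −0.11, 0.18, 0.04 and −0.02, against 0.02 for all tested genes, and at an unadjusted p under 0.05 limma gave 2 higher and 3 lower, 9 and 3, 3 and 3, and 7 and 10. In these 4 lists edgeR called 0 genes, and DESeq2 called 0 higher and 1 lower, 4 and 0, 2 and 0, and 2 and 2, beside its shares of 5.99% higher and 7.37% lower over all genes. The nearest to the limma threshold in each, all of them called by DESeq2, were Ecsit (log2 fold change −0.50, limma adjusted p = 0.103), Cox19, which works in copper delivery to complex IV (0.46, 0.0671), Cycs, which encodes cytochrome c (1.09, 0.0679), and the ribosomal protein gene Mrpl3 (−0.49, 0.0625). For comparison, limma called 2.33% of all tested genes higher and 3.39% lower, and had 11.7% higher and 12.6% lower at an unadjusted p under 0.05. Of 24 genes of the tricarboxylic acid cycle and pyruvate dehydrogenase, 1 rose and 0 fell (4 higher and 2 lower at an unadjusted p under 0.05, and 0 lower with edgeR or DESeq2). That gene was Pdk4, a kinase that inhibits pyruvate dehydrogenase, with 571, 556, 424 and 542 normalized counts on 3D collagen, against 312, 282, 241 and 245 on 2D collagen (log2 fold change 0.95, SE 0.18, limma adjusted p = 0.0194). Every 3D library lay above every 2D library.

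Among 20 regulators of mitochondrial gene expression 1 rose and 1 fell, where limma called 2.33% of all tested genes higher and 3.39% lower. The same 2 genes were called by edgeR. DESeq2 called 4 higher and 4 lower, beside 5.99% and 7.37% of all genes. The median log2 fold change of the 20 regulators was 0.25. Yy1, a zinc-finger factor whose motif was among those searched in the promoters, had 763, 889, 651 and 675 normalized counts on 3D collagen, against 393, 338, 503 and 271 on 2D collagen (log2 fold change 1.01, SE 0.21, limma adjusted p = 0.0288). Pprc1, a coactivator related to PGC-1alpha, had 494, 844, 597 and 819 on 3D collagen, against 1352, 2174, 1467 and 2441 on 2D collagen (log2 fold change −1.42, SE 0.25, limma adjusted p = 0.0160). Neither pair of groups overlapped. Ppargc1a, which encodes PGC-1alpha itself, had 121, 130, 112 and 120 on 3D collagen, against 48.7, 5.97, 43.5 and 40.4 on 2D collagen, again without overlap; it did not pass with limma (log2 fold change 2.10, SE 0.58, limma adjusted p = 0.0671) or edgeR, and passed with DESeq2 (adjusted p = 0.00375). Nrf1 had 493 ± 42.9 on 3D collagen and 730 ± 103 on 2D collagen (log2 fold change −0.56, limma adjusted p = 0.0693, DESeq2 adjusted p = 0.0119), and Tfam, the mitochondrial DNA packaging and transcription factor, had 673 ± 174 on 3D collagen and 557 ± 157 on 2D collagen (limma adjusted p = 0.526).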

How the data were processed

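RNA of 8 libraries, 4 from MOE cells on 3D collagen and 4 on 2D collagen, was extracted with TRIzol, cleaned on Qiagen columns and sequenced by Illumina protocols, per the labels' protocols. What the authors deposited is a normalized signal for each gene symbol. Per the submitters' processing notes HTSeq 0.6.1p1, DESeq2 and mm10 were used; aligner, annotation, strand setting and filters were not given in the sources used here. All values (100%) were whole multiples of 1 read's worth within 0.001 reads, so reads were recovered by dividing it out, and the divisors equalled DESeq2-type size factors.

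The test was limma 3.58.1 (R 4.3.3; trended, robust prior) on log2(normalized count + 1) without covariates, which understates changes of low genes, over genes with at least 10 in at least 4 libraries. P-values were Benjamini-Hochberg adjusted over all tested genes, with a threshold of 0.05. Depth resolves most members well, and counting limits cover counting error only. edgeR 4.0.16 and DESeq2 1.42.0 on recovered reads, other scalings, pseudocounts, filters, GC and length corrections (lowess, span 30%), a replicate block and leaving out libraries were alternatives. The main fit, the other tools, scalings, pseudocounts, filters and the replicate block were tried on simulated counts that held no library-specific GC trends. The GC and length corrections and the fits leaving out libraries were not. Isoform shares had exact permutation tests. Annotation came from GENCODE M21 (GRCm38); all 91 members matched, 2 through older symbols. The main transcript was a protein-coding one, chosen by RefSeq link, APPRIS and length. Long main transcripts of 4715 and 3479 bases lower the TPM of Atp5g1 and Ndufab1. Their reads were also few, at 68 to 117 for Atp5g1 and 32 to 106 for Ndufab1 per library.

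The symbol rule uses no measured value, but this group of genes, the lists and the tests were chosen with earlier results of these data known. Named genes were all called members; in each complex the 2 most abundant, the 2 with the smallest p, the highest and the lowest; the 2 Ndufaf genes with the smallest p; all isoform genes; and per related list those called or the 1 nearest. Other genes named (Ndufs5, Cox7c, Atp5l, Ndufab1 and the regulators) were chosen after their values were seen.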

Additional observations from a re-analysis of the deposited data

Results flagged for a closer look

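Each result here has 1 library far from the other 3 of its group, by the gap to the nearest library divided by the group's range (above Dixon's 95% critical value). Of 62 groups of 4 libraries examined 5 met this, where chance gives about 1 in 20, and 3 of the 5 concern 2D replicate 2. That library had the highest normalized counts on 2D collagen for Ndufb8 (13810), Sdhc (5767) and Cox4i1 (40950), which limma did not call. On 3D collagen, replicate 4 was the highest for Sdhd (3668) and replicate 2 the lowest for Cox7b (1309). The causes were not tested.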

How the results depend on the processing

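The count of members lower on 3D collagen was 0 in all 23 alternatives. Library size as the only scaling gave 498 higher genes over all tested and moved the medians to 0.16 (all members), 0.081 (complex I), 0.19 (complex II) and 0.20 (the 4 other members), and upper-quartile scaling gave 0.12 for complex II; the all-gene median moved by 0.17 and 0.10, and 39.0% and 47.3% of called genes were lower, against 59.3% in the reported fit. DESeq2 called 708 genes higher and 871 lower (6 members higher, 1 each in complexes I and III). The GC correction gave 508 and 630 (5 members, 1 in complex III; median −0.19 for the 4 other members), the length correction 0 members (0 in complexes IV and V), and both corrections 589 and 661 (1 member, in complex III, 0 in complexes IV and V; median −0.25 for the 4 others). The GC correction without 2D replicate 2 left 1 member higher in each of complexes III, IV and V. Without both libraries numbered 4, 171 genes were higher and 0 members. Leaving out 1 library gave 44 to 267 genes higher, 104 to 370 lower, and 0 to 4 members higher (0 to 3 in complex IV, 0 to 1 in complex V): 4 without 2D replicate 2, 2 without 2D replicate 3, 1 without 3D replicate 4 and 0 without any other library. The members' median then ran from −0.10 to 0.04. The Atp5g1 share differed by −0.29 percentage points (−0.33 to −0.18 with 1 library left out, each with an exact two-sided permutation p of 0.0571, the smallest that 3 against 4 libraries give when the one-sided p is doubled, as it was here). The causes were not tested, except that fewer libraries leave less to test with.

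With the replicate number as a block 663 genes were higher and 742 lower, and 6 members were higher (Atp5j, Ndufa1, Cox6c, Uqcrb, Cox7b and Ndufa4; 1 each in complexes I and III). Same-numbered libraries deviated together with r of −0.17, 0.37, 0.25 and 0.81 for numbers 1 to 4, and number 1 fell short of the 0.1 asked of every pair, so the numbers were not taken as a pairing; 3D replicates 2, 3 and 4 correlated best with their own number and 3D replicate 1 with 2D replicate 2. The GC and length corrections together, the GC correction without 2D replicate 2 and the omission of both libraries numbered 4 were added after the data were seen. Few reads limit what can be read from low-count members (Cox7c, Atp5l and minor isoforms), and library-specific GC trends limit small fold changes. Why the counts of Cox7c and Atp5l were low was not tested.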

Other observations

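Markers of other cell types were low in all 8 libraries. Summed levels in RPM (reads per 1000000 reads) ran from 17.2 to 38.9 on 3D collagen and from 14.2 to 29.3 on 2D collagen for 4 endothelial genes, and from 2.12 to 15.5 on 3D collagen and from 1.21 to 15.9 on 2D collagen for 5 fibroblast genes. The 4 hepatocyte genes reached 17.9 in replicate 1 on 3D collagen and 18.1 in replicate 2 on 2D collagen, the 7 listed intestinal genes 9.74 in that same 2D library, and Ucp1, the brown-fat uncoupling protein, was at 0 throughout.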
